A study of Mus musculus with 4 samples.

Results

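Chemokine genes known for drawing T and NK cells into tissue, and their receptor genes, were followed through 4 single-cell libraries of transplanted mouse Py8119 tumours. They were chosen by name and are 10 of the 23635 genes listed in the libraries. The 7 ligands were Cxcl9, Cxcl10, Cxcl16, Ccl3, Ccl4, Ccl5 and Xcl1, and the 3 receptors were Cxcr3, Cxcr6 and Xcr1. Every one of the 10 had UMIs in every library. A UMI is a molecular tag that marks a single captured transcript, and levels are given as CPM, the UMIs of a gene as a share of all UMIs of the class and library named, scaled to the same total in each. Py8119 is a mesenchymal line derived from the MMTV-PyMT transgenic mouse, in which a viral promoter drives the polyoma middle T oncogene in the mammary gland. One group of tumours carried a short hairpin RNA against Sema4d (Sema4d-shRNA, 2 libraries), and the controls are labelled NC with the genotype given as control (2 libraries). Each library was made from a whole tumour suspension, and the labels call the cells tumour cells, although immune and stromal markers were present in all 4.

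Chemokines are small secreted proteins that bind to receptors coupled to inhibitory G proteins and steer cells along their gradients. CXCL9 and CXCL10 are induced by interferons and attract activated T and NK cells through CXCR3. CXCL16 is made as a membrane-bound protein that ADAM proteases shed, and its receptor CXCR6 marks resident and effector T cells. CCL3, CCL4 and CCL5 are inflammatory CC chemokines released by activated T cells, NK cells and myeloid cells. XCL1 comes from NK cells and CD8 T cells and attracts the cross-presenting dendritic cells (cDC1) that carry XCR1.

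In the mouse genome (GRCm38, GENCODE annotation) all 10 are protein-coding genes and several lie in clusters. Cxcl9 (chr5:92321347-92328079) and Cxcl10 (chr5:92346638-92348889) are close neighbours on the minus strand. Ccl5 (chr11:83525778-83530518), Ccl3 (chr11:83647844-83649355) and Ccl4 (chr11:83662584-83664683) share a stretch of chromosome 11, with Ccl4 alone of the 3 on the plus strand, and Cxcl16 is at chr11:70453983-70459984. Cxcr6 (chr9:123806475-123811760) and Xcr1 (chr9:123852315-123862029) are neighbours on chromosome 9, Xcl1 is at chr1:164931644-164935527, and Cxcr3 is at chrX:101731535-101734269.

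The promoters of the CXCR3 ligands are shown because these genes had different main sources, and Cxcl10 was highest, among tumour-like cells, in a cluster led by interferon-induced genes. Each run is the 250 bases before the RefSeq start (GRCm38.p6, minus strand, written 5′ to 3′ in the direction of the gene). Cxcl9 covers chr5:92328080-92328329 and Cxcl10 covers chr5:92348890-92349139. Capitals mark matches to an interferon-stimulated response element, searched as GAAA, any 2 bases and GAAA, and to an NF-kB site, searched as GGGA, any 4 bases and CC, on both strands.

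Cxcl9: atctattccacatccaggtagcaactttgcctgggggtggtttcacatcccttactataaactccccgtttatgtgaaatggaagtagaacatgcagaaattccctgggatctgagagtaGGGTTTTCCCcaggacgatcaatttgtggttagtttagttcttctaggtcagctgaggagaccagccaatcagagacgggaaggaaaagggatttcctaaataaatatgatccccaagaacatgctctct
Cxcl10: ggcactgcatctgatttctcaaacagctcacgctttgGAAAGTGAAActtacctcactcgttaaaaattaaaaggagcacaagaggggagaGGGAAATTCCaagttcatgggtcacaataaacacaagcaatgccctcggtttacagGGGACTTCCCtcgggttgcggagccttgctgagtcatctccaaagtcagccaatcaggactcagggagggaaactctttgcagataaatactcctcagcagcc

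Cxcl10 held 1 interferon-element match, starting 213 bases before the RefSeq start, and NF-kB matches starting 159 and 103 bases before it, of which the nearer reads as a match on both strands. Cxcl9 held 1 NF-kB match, on the strand opposite to the gene, 130 bases before the start. A gamma-activated site searched as TTCNNNGAA was in neither. Of the 32851 RefSeq promoters of this length, 2.98% held the interferon element, 17.6% the NF-kB letters and 7.02% the gamma-activated letters. Promoters were listed for 7 of the 10 genes, and those of Ccl3, Xcl1, Cxcr3, Cxcr6 and Xcr1 had no match to any of the 3 motifs. The genes with no promoter listed were Cxcl16, Ccl4 and Ccl5. A match describes the letters of the window and no binding.

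The Sema4d-shRNA libraries held 10575 and 13173 cells with 113904173 and 119758159 UMIs, and the NC libraries 10874 and 10598 cells with 101909637 and 83513906 UMIs. After filters on cells and doublets, 42359 cells were left, and clusters built without the 10 genes were named from marker lists, the macrophage-like class from markers of macrophages and monocytes together. Tumour-like cells made up 73.4% and 68.1% of cells in Sema4d-shRNA tumours, against 49.0% and 49.9% in NC tumours. Macrophage-like cells made up 17.5% and 18.2% in Sema4d-shRNA tumours, against 30.7% and 38.5% in NC tumours, and T/NK-like cells 4.78% and 7.42% in Sema4d-shRNA tumours, against 3.62% and 2.61% in NC tumours. Dendritic-like cells numbered 47 and 105 in Sema4d-shRNA tumours and 79 and 88 in NC tumours, and unnamed clusters held 2.67% and 3.55% of cells in Sema4d-shRNA tumours, against 14.2% and 7.34% in NC tumours. Sema4d itself had 3.86 and 5.45 CPM in tumour-like cells of Sema4d-shRNA tumours, against 6.61 and 7.41 CPM in NC tumours (log2 -0.53, SE 0.18; edgeR quasi-likelihood test, adjusted p = 0.288), so the knockdown did not pass the threshold of 0.05 used throughout. The Sema4d difference was not confined to tumour-like cells. It was log2 -0.44 in T/NK-like cells (edgeR adjusted p = 0.104) and -0.83 in dendritic-like cells (edgeR adjusted p = 0.999). In macrophage-like cells it was 0.13 (edgeR adjusted p = 0.747). The part of free RNA in the tumour-like Sema4d values was not tested. The labels do not say that the libraries came from separate animals, so p-values measure only the spread between these samples, and an exact permutation test of 2 libraries against 2 could not go below 0.333. In what follows the 2 values of a group are those of its library 1 and library 2.

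The CXCR3 ligands had different main sources. Cxcl9 was a macrophage transcript: macrophage-like cells held 79.1% and 79.9% of its UMIs in Sema4d-shRNA tumours and 89.6% and 91.6% in NC tumours. Cxcl10 was mainly a tumour-cell transcript by total, with 84.1% and 81.3% of its UMIs in tumour-like cells of Sema4d-shRNA tumours, against 59.7% and 51.0% in NC tumours. The exact 95% binomial intervals of these shares were narrow (83.5 to 84.7% for the highest and 50.1 to 51.8% for the lowest share of Cxcl10) and cover counting error only, as do all intervals here. The rest of Cxcl10 was largely in macrophage-like cells, at 13.9% and 14.7% in Sema4d-shRNA tumours, against 36.3% and 45.6% in NC tumours. These shares follow from the number and size of the cells of a class as well as from the level in each, and the tumour-like class held 87.9% and 84.0% of all UMIs in Sema4d-shRNA tumours, against 71.3% and 69.8% in NC tumours.

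By CPM the order of classes for Cxcl10 was the reverse. Tumour-like cells had 155 and 172 CPM of Cxcl10 in Sema4d-shRNA tumours and 151 and 122 CPM in NC tumours, while macrophage-like cells had 255 and 265 CPM in Sema4d-shRNA tumours and 352 and 311 CPM in NC tumours. The tumour-like values were below the macrophage values in all 4 libraries, by a log2 difference of -1.16 (SE 0.153; edgeR, adjusted p = 5.44e-06). Dendritic-like cells were at 210.3 and 337 CPM in Sema4d-shRNA tumours and 278 and 256 CPM in NC tumours, which did not differ from the macrophage level beyond the spread (macrophage minus dendritic log2 0.39, edgeR adjusted p = 0.176). For Cxcl9 the distance between the classes was far larger. Tumour-like cells had 27.5 and 15.6 CPM of Cxcl9 in Sema4d-shRNA tumours and 22.9 and 30.3 CPM in NC tumours, against macrophage levels of 1485 and 1028 CPM in Sema4d-shRNA tumours and 1256 and 1511 CPM in NC tumours (log2 -5.97; edgeR, adjusted p = 1.28e-11). Macrophage-like cells were also above dendritic-like cells, whose Cxcl9 level was 1036 and 706 CPM in Sema4d-shRNA tumours and 731 and 555 CPM in NC tumours (log2 1.10, SE 0.183; edgeR, adjusted p = 7.72e-04). The few endothelial-like cells had 7545 and 2407 CPM of Cxcl9 in Sema4d-shRNA tumours and 329 and 2239 CPM in NC tumours. They numbered 16 and 30 cells in Sema4d-shRNA tumours and 18 and 14 in NC tumours, and no test was run. The nearest values of the groups were 2407 and 2239 CPM. How many of all genes kept the groups apart in so few cells was not counted, so no difference is read from their order.

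**Figure D1:**
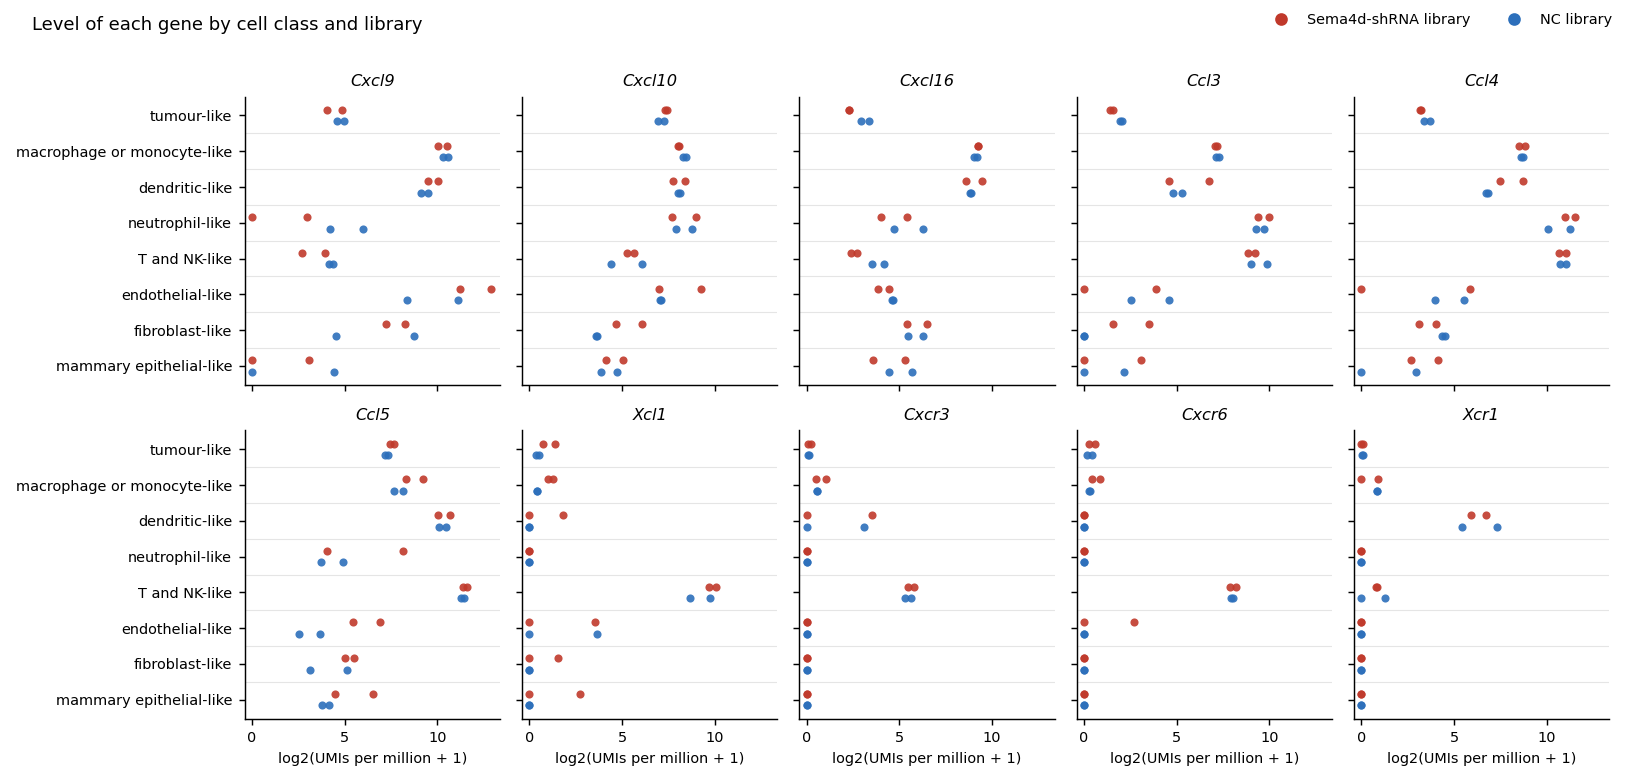
Level of each of the 10 genes, as log2(CPM + 1), by cell class; each point is a library, Sema4d-shRNA above NC. Cxcl9 and Cxcl16 are higher in macrophage-like and dendritic-like than in tumour-like cells, Cxcl10 is shared by tumour-like and myeloid cells, and Xcl1, Cxcr3 and Cxcr6 are highest in T/NK-like cells.

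Cxcl16, the membrane-bound ligand of CXCR6, had the plainest single source. Macrophage-like cells held 90.9% and 90.8% of its UMIs in Sema4d-shRNA tumours and 91.8% and 93.0% in NC tumours. Their level was 601 and 595 CPM in Sema4d-shRNA tumours and 526 and 589.9 CPM in NC tumours, and dendritic-like cells were at 706 and 388 CPM in Sema4d-shRNA tumours and 440.3 and 463 CPM in NC tumours. These classes did not differ beyond the spread (macrophage minus dendritic log2 0.58, SE 0.273; edgeR, adjusted p = 0.173). Tumour-like cells had 3.83 and 3.8 CPM of Cxcl16 in Sema4d-shRNA tumours and 6.61 and 9.24 CPM in NC tumours, a log2 difference of -6.87 from macrophages (edgeR, adjusted p = 3.8e-09). T/NK-like cells were also low, with 4.31 and 5.48 CPM in Sema4d-shRNA tumours and 10.7 and 17.1 CPM in NC tumours, and did not differ from tumour-like cells beyond the spread (tumour minus T/NK log2 -0.47; edgeR, adjusted p = 0.474).

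Ccl3 and Ccl4 came from both macrophages and lymphocytes, and Ccl5 also from tumour cells. By total, macrophage-like cells held 54.8% and 48.4% of Ccl3 UMIs in Sema4d-shRNA tumours and 64.2% and 81.1% in NC tumours, and T/NK-like cells 34.2% and 40.6% in Sema4d-shRNA tumours, against 25.9% and 10.3% in NC tumours. Ccl4 was divided between the same classes, with T/NK-like cells at 34.1% and 44.9% in Sema4d-shRNA tumours, against 21.4% and 11.6% in NC tumours. Macrophage-like cells held 42.7 to 78.6% of Ccl4 UMIs over the libraries. Only in Sema4d-shRNA library 2, at 42.7%, was their share below that of T/NK-like cells. By CPM, Ccl3 stood at 145 and 131 CPM in macrophage-like cells of Sema4d-shRNA tumours and 138 and 152 CPM in those of NC tumours, and at 591 and 463 CPM in T/NK-like cells of Sema4d-shRNA tumours and 949.6 and 519 CPM in those of NC tumours. The macrophage level was below the T/NK level in each library (log2 -1.90, SE 0.282; edgeR, adjusted p = 2.26e-04). Ccl4 stood at 462 and 363 CPM in macrophage-like cells of Sema4d-shRNA tumours and 385 and 425 CPM in those of NC tumours, again below T/NK-like cells at 2077 and 1609 CPM in Sema4d-shRNA tumours and 2068 and 1670.3 CPM in NC tumours (log2 -1.96, SE 0.239; edgeR, adjusted p = 4.71e-05). Neutrophil-like cells, 27 and 15 in Sema4d-shRNA tumours and 60 and 29 in NC tumours, had 662 and 998 CPM of Ccl3 in Sema4d-shRNA tumours and 612 and 829 CPM in NC tumours. Their Ccl4 was 2911 and 2027 CPM in Sema4d-shRNA tumours and 1091 and 2486 CPM in NC tumours. They overlapped the T/NK-like range and were too few for the test.

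Ccl5 was highest by CPM in T/NK-like cells, at 3049.9 and 2710.1 CPM in Sema4d-shRNA tumours and 2744 and 2515 CPM in NC tumours. Tumour-like cells stood at 201 and 176 CPM in Sema4d-shRNA tumours and 159 and 141 CPM in NC tumours, below T/NK-like cells by a log2 difference of -3.98 (edgeR, adjusted p = 8.26e-08). Being so many, the tumour-like cells nevertheless held 63.7% and 58.6% of all Ccl5 UMIs in Sema4d-shRNA tumours and 54.2% and 54.0% in NC tumours. Macrophage-like cells had 598 and 315 CPM in Sema4d-shRNA tumours and 282 and 202 CPM in NC tumours, and dendritic-like cells 1659.8 and 1051 CPM in Sema4d-shRNA tumours and 1088 and 1404 CPM in NC tumours. In order of level, T/NK-like cells were above dendritic-like cells (log2 1.18; edgeR, adjusted p = 0.00286), macrophages were below dendritic-like cells (log2 -1.66; edgeR, adjusted p = 4.14e-04), and tumour-like cells were below macrophages (log2 -1.15; edgeR, adjusted p = 5.66e-04).

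**Figure D2:**
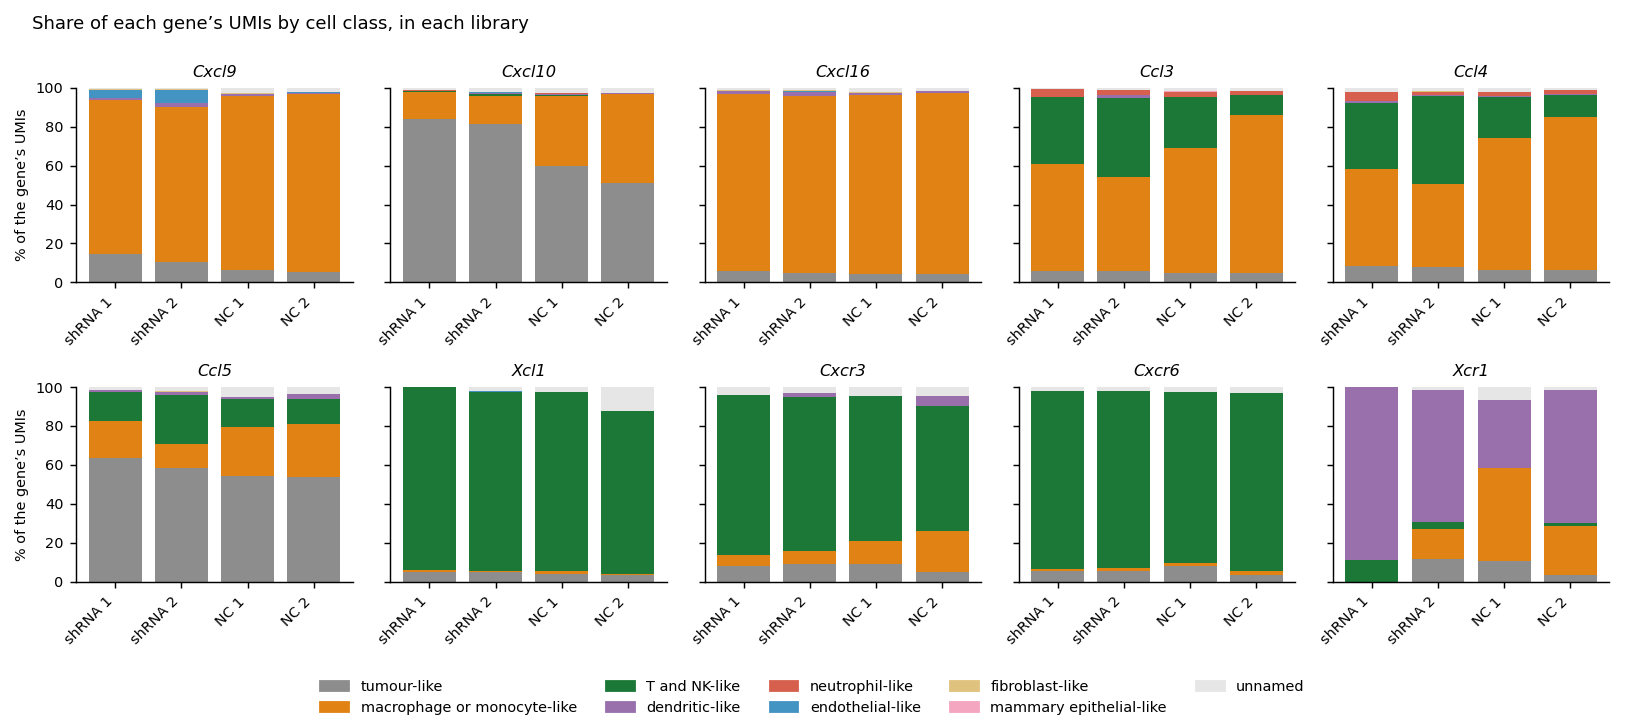
Percent of each gene's UMIs held by each cell class in each library, Sema4d-shRNA libraries left of NC libraries. Macrophage-like cells hold most of Cxcl9 and Cxcl16, tumour-like cells most of Cxcl10 and Ccl5, and T/NK-like cells most of Xcl1, Cxcr3 and Cxcr6.

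Xcl1 and the receptors Cxcr3 and Cxcr6 were lymphocyte transcripts. T/NK-like cells, 4.78% and 7.42% of cells in Sema4d-shRNA tumours and 3.62% and 2.61% in NC tumours, held 94.1% and 92.3% of Xcl1 UMIs in Sema4d-shRNA tumours and 92.0% and 83.4% in NC tumours. Their Xcl1 level was 829 and 1089 CPM in Sema4d-shRNA tumours and 412 and 860.0 CPM in NC tumours, and no other named class passed 11.5 CPM in any library. For Cxcr6 the share of UMIs in T/NK-like cells was 91.5% and 91.2% in Sema4d-shRNA tumours and 88.1% and 91.5% in NC tumours, at 230.4 and 291 CPM in Sema4d-shRNA tumours and 244 and 260.1 CPM in NC tumours. No Cxcr6 UMI was found in dendritic-like cells of any library, which at this depth allows a share of cells with a UMI, not of cells expressing the gene, of up to 6.38% and 2.86% in Sema4d-shRNA tumours and 3.8% and 3.41% in NC tumours. Cxcr3 was sparse everywhere: T/NK-like cells had 43.8 and 54.0 CPM in Sema4d-shRNA tumours and 48.6 and 38.4 CPM in NC tumours. They held 82.4% and 79.3% of its UMIs in Sema4d-shRNA tumours (intervals 71.8 to 90.3% and 72.5 to 85.1%) and 74.6% and 64.3% in NC tumours (62.5 to 84.5% and 48.0 to 78.4%).

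Xcr1, the receptor for XCL1, was carried by dendritic-like cells. They had 60.1 and 103 CPM in Sema4d-shRNA tumours and 41.5 and 157 CPM in NC tumours, from only 8 and 40 UMIs in Sema4d-shRNA tumours and 10 and 41 UMIs in NC tumours. T/NK-like cells were below them by a log2 difference of -6.91 (edgeR, adjusted p = 8.6e-12). Dendritic-like cells held 88.9% and 67.8% of Xcr1 UMIs in Sema4d-shRNA tumours (intervals 51.8 to 99.7% and 54.4 to 79.4%) and 34.5% and 68.3% in NC tumours (17.9 to 54.3% and 55.0 to 79.7%). These intervals are wide. Macrophage-like cells held 0% and 15.3% of Xcr1 UMIs in Sema4d-shRNA tumours and 48.3% and 25.0% in NC tumours, and their level was below 1 CPM in each library.

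Between classes, 6 to 10 of the members differed, depending on the pair, and each count is given with the share of all genes that differed. Tumour-like against macrophage-like cells gave 8 of the 10 members past the threshold, beside 80.1% of all 12403 genes tested. Tumour-like against T/NK-like cells gave 9 (66.8% of all genes), and tumour-like against dendritic-like cells 8 (49.2%). Macrophage-like against T/NK-like cells gave 9 (55.6%), macrophage-like against dendritic-like cells 6 (22.9%), and T/NK-like against dendritic-like cells 10 (28.5%).

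Within the lymphocytes, the ligands and receptors were divided among sub-clusters named from markers that included none of the 10 genes. CD8 T-like cells (81 and 284 cells in Sema4d-shRNA tumours, 107 and 76 in NC tumours) carried Cxcr6 at 424 and 478 CPM in Sema4d-shRNA tumours and 358 and 388 CPM in NC tumours. NK-like cells (112 and 151 in Sema4d-shRNA tumours, 37 and 38 in NC tumours) had 48.4 and 40.0 CPM in Sema4d-shRNA tumours and 0 and 88.0 CPM in NC tumours. CD8 T-like cells were above NK-like cells in every library (log2 3.34, SE 0.236; edgeR, adjusted p = 2.62e-16) and above naive or memory T-like cells, which had 93.5 and 136 CPM in Sema4d-shRNA tumours and 30.3 and 156 CPM in NC tumours (log2 1.84; edgeR, adjusted p = 3.15e-09). Cycling cells had 241 and 197 CPM in Sema4d-shRNA tumours and 159 and 199 CPM in NC tumours, below CD8 T-like cells (CD8 minus cycling log2 1.15; edgeR, adjusted p = 3.11e-07). An unnamed sub-cluster led by Lgals7, Penk and Garnl3, with 36 and 51 cells in Sema4d-shRNA tumours and 14 and 13 in NC tumours, had more Cxcr6 than CD8 T-like cells in each library, at 465 and 768 CPM in Sema4d-shRNA tumours and 714 and 774 CPM in NC tumours, with no test. The naive or memory group, led by Dapl1, A630014C17Rik and Cd7, also had the NK receptors Klra1 and Klra7 among its leading genes.

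Cxcr3 had another pattern. Naive or memory T-like cells had 93.5 and 114 CPM of Cxcr3 in Sema4d-shRNA tumours and 90.8 and 77.9 CPM in NC tumours, and regulatory T-like cells (22 and 26 cells in Sema4d-shRNA tumours, 10 and 17 in NC tumours) had 77.5 and 144 CPM in Sema4d-shRNA tumours and 155 and 63.8 CPM in NC tumours. CD8 T-like cells had 3.75 and 27.0 CPM in Sema4d-shRNA tumours and 15.5 and 31.6 CPM in NC tumours, and NK-like cells 16.1 and 32.9 CPM in Sema4d-shRNA tumours and 9.90 and 11 CPM in NC tumours. CD8 T-like cells were below naive or memory cells (log2 -2.43, SE 0.43; edgeR, adjusted p = 1.82e-05), and NK-like cells were below them too (log2 -2.32; edgeR, adjusted p = 2.75e-04). Naive or memory cells were above cycling cells for Cxcr3 (log2 2.67; edgeR, adjusted p = 5.32e-06) and below them for Cxcr6 (log2 -0.69; edgeR, adjusted p = 0.0285). Regulatory T-like cells were too few in NC library 1 and NC library 2 for a test. Cxcr3 was also found in unnamed sub-clusters, which were not tested. The one led by Plin3, Golga5 and Prss2 had 163 and 116 CPM in Sema4d-shRNA tumours and 137 and 0 CPM in NC tumours, and the one led by Gm26870, Gm10800 and Gm10801 had 196 and 71.7 CPM in Sema4d-shRNA tumours and 117 and 104 CPM in NC tumours. Each was above naive or memory cells in 3 of the 4 libraries.

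**Figure D3:**
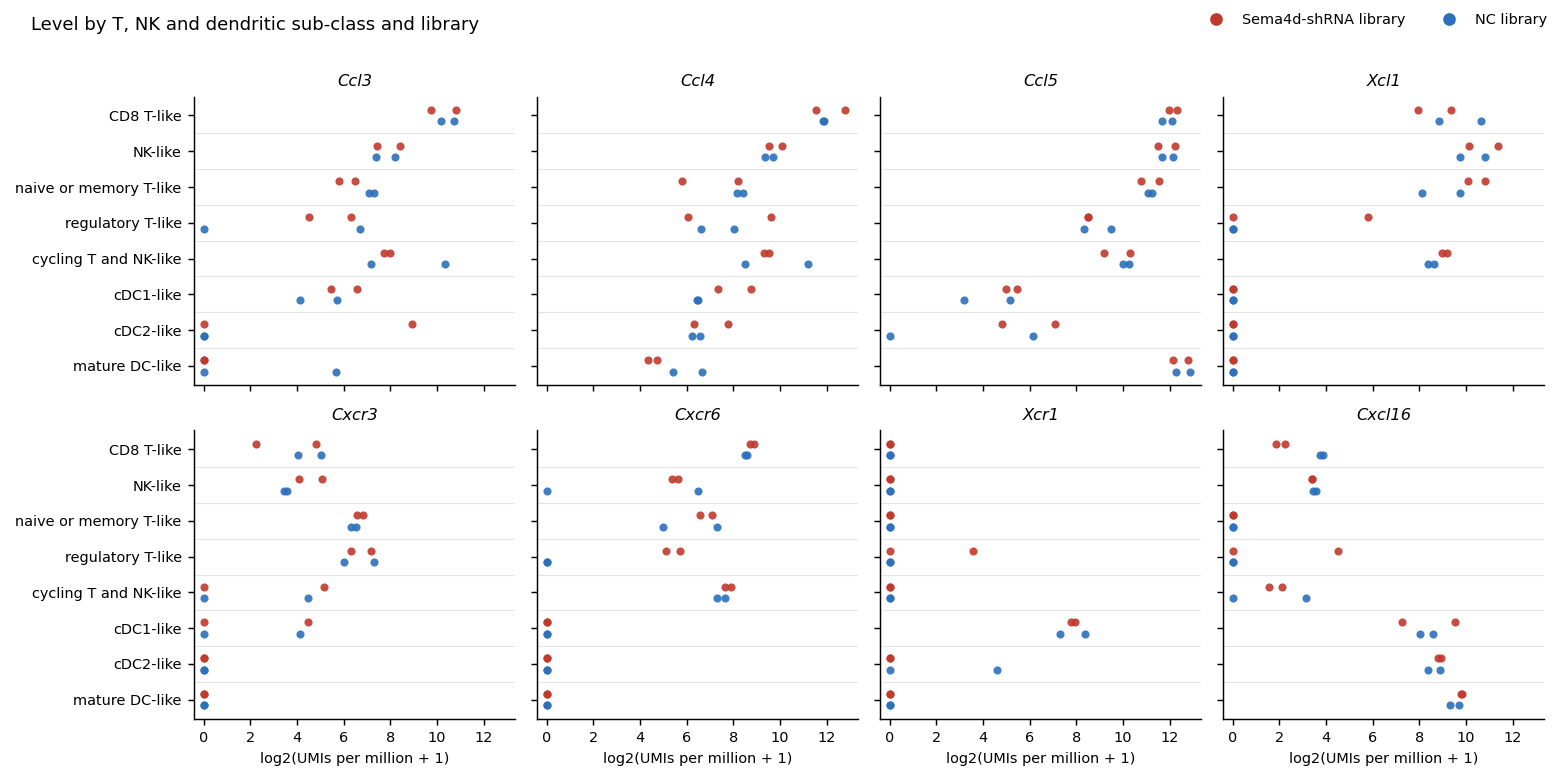
Level of the members, as log2(CPM + 1), in sub-clusters of T, NK and dendritic-like cells; each point is a library, Sema4d-shRNA above NC, with the same axis for the sub-clusters of a gene. Unnamed sub-clusters are not drawn; of those drawn, Cxcr6 is highest in CD8 T-like cells, Cxcr3 in naive or memory and regulatory T-like cells, and Xcr1 in cDC1-like cells.

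Among the ligands, Ccl3 and Ccl4 were higher in CD8 T-like cells and Xcl1 was shared with NK-like and naive or memory cells. Ccl4 stood at 7165 and 3026 CPM in CD8 T-like cells of Sema4d-shRNA tumours and 3663 and 3835 CPM in those of NC tumours, above NK-like cells at 1074 and 734 CPM in Sema4d-shRNA tumours and 832 and 660.0 CPM in NC tumours (log2 2.40; edgeR, adjusted p = 0.012). It was also above naive or memory cells at 55.0 and 290.1 CPM in Sema4d-shRNA tumours and 287 and 337 CPM in NC tumours (log2 4.08; edgeR, adjusted p = 0.00152). Ccl3 followed it, at 1779 and 856 CPM in CD8 T-like cells of Sema4d-shRNA tumours and 1698 and 1161 CPM in those of NC tumours (against NK-like cells log2 2.44, SE 0.477; edgeR, adjusted p = 0.00597). CD8 T-like and NK-like cells did not separate for Ccl5, where CD8 T-like cells had 5161 and 3998 CPM in Sema4d-shRNA tumours and 4422 and 3302 CPM in NC tumours, and NK-like cells 4799 and 2925 CPM in Sema4d-shRNA tumours and 3228 and 4510.2 CPM in NC tumours (log2 0.13; edgeR, adjusted p = 0.848). Xcl1 stood at 1122 and 2619 CPM in NK-like cells of Sema4d-shRNA tumours and 852 and 1782 CPM in those of NC tumours. In naive or memory cells it was 1084 and 1824 CPM in Sema4d-shRNA tumours and 847 and 277 CPM in NC tumours, and in CD8 T-like cells 248 and 652 CPM in Sema4d-shRNA tumours and 460.2 and 1581 CPM in NC tumours. NK-like and naive or memory cells did not differ for it beyond the spread (log2 0.48; edgeR, adjusted p = 0.732), and neither did CD8 T-like and NK-like cells (log2 -1.16; edgeR, adjusted p = 0.224). Over all genes tested, 16.1% differed between CD8 T-like and NK-like cells, 16.1% between CD8 T and naive or memory, 22.9% between CD8 T and cycling, 9.6% between NK and naive or memory, 26.8% between NK and cycling, and 23.9% between naive or memory and cycling cells.

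A very small group of conventional CD4 T-like cells had the highest levels of Ccl3, Ccl4 and Xcl1. It held 8 and 10 cells in Sema4d-shRNA tumours and 3 and 1 cells in NC tumours and was led by the cytokine genes Il13, Il4 and Il2. These cells had 322 and 823 UMIs of Ccl4 in Sema4d-shRNA tumours and 170 and 165 UMIs in NC tumours, which is 13776 and 25791 CPM in Sema4d-shRNA tumours and 38436 and 151515 CPM in NC tumours. Their Xcl1 level was 15402 and 9746 CPM in Sema4d-shRNA tumours and 4069.6 and 2755 CPM in NC tumours. With 1 to 10 cells a library these are values with no test.

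The dendritic-like cells divided by member as well. cDC1-like cells (8 and 36 in Sema4d-shRNA tumours, 15 and 32 in NC tumours) had Xcr1 at 249 and 215 CPM in Sema4d-shRNA tumours and 155 and 335 CPM in NC tumours, cDC2-like cells had a single Xcr1 UMI, in NC library 1, and mature dendritic-like cells had none. Mature dendritic-like cells (15 and 17 in Sema4d-shRNA tumours, 18 and 20 in NC tumours) had the highest Ccl5 of the dendritic-like sub-clusters, at 4586 and 7038 CPM in Sema4d-shRNA tumours and 4895 and 7434 CPM in NC tumours. cDC2-like cells (12 and 16 in Sema4d-shRNA tumours, 10 and 6 in NC tumours) had Cxcl9 at 2736 and 1737 CPM in Sema4d-shRNA tumours and 1399.7 and 770.0 CPM in NC tumours. Xcr1 was seen in 50% and 47.2% of cDC1-like cells in Sema4d-shRNA tumours and 20% and 46.9% in NC tumours, with intervals as wide as 15.7 to 84.3%. In macrophage-like cells, a class that should lack it, the share was 0% and 0.313% in Sema4d-shRNA tumours and 0.352% and 0.366% in NC tumours. Thinned to 1000 UMIs a cell, the cDC1 shares were 37.5% and 11.1% in Sema4d-shRNA tumours, against 13.3% and 18.8% in NC tumours, from median depths of 3760 and 4499 UMIs in Sema4d-shRNA tumours and 2240 and 2847.5 in NC tumours.

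Among macrophages and tumour cells the CXCR3 ligands were unevenly spread over clusters, which are described here by their leading genes, with no test, since they were chosen from the same cells. In macrophages, Cxcl10 stood at 1049 CPM over the 1378 cells led by Plac8, Ly6c2 and Hp, genes of inflammatory monocytes, and at 831 and 1030 CPM in Sema4d-shRNA tumours and 1247 and 1010 CPM in NC tumours within that cluster. The largest cluster, 5835 cells led by Retnla, Cbr2 and Nxpe5, had 198 CPM of Cxcl10 but 1587 CPM of Cxcl9, at 2122 and 1282 CPM in Sema4d-shRNA tumours and 1437 and 1661 CPM in NC tumours. A cluster of 682 cells led by the histone genes Hist1h3c, Hist1h2ae and Hist1h1b had 1920 and 1665 CPM of Cxcl9 in Sema4d-shRNA tumours and 1670 and 1183 CPM in NC tumours, above the Retnla cluster in Sema4d-shRNA library 2 and NC library 1 and below it in the other libraries. The cluster led by Adm, Atp6v0d2 and Mmp12 (1735 cells) had 894 CPM of Ccl4 and 690.4 CPM of Cxcl16 over all libraries, with Ccl4 below the Plac8 cluster in Sema4d-shRNA library 1 (680 and 755 CPM) and Cxcl16 below the Hist1h3c cluster in Sema4d-shRNA library 2 (695 and 754 CPM). A small cluster of 68 cells led by Lyve1, Cd209f and Ednrb had little of both CXC ligands, with 43.8 CPM of Cxcl9 and 74.5 CPM of Cxcl16. One macrophage cluster of 1227 cells was led by the granzyme genes Gzmf, Gzmg and Gzmd, which are better known in lymphocytes, and had 1224 CPM of Cxcl9. The Plac8 cluster made up 21.4% and 11.9% of macrophage-like cells in Sema4d-shRNA tumours and 14.3% and 7.68% in NC tumours, and the Retnla cluster 41.2% and 48.2% in Sema4d-shRNA tumours and 52.3% and 62.9% in NC tumours.

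In tumour-like cells, Cxcl10 was highest in every library in the cluster led by the interferon-induced genes Rsad2, Ifit3 and Ifit1. Its Cxcl10 level was 614 and 809 CPM in Sema4d-shRNA tumours and 620 and 772 CPM in NC tumours, and its Ccl5 level was 592 and 451 CPM in Sema4d-shRNA tumours and 342 and 524 CPM in NC tumours. The next cluster for Cxcl10, led by C3, Slpi and Ccl7, had 216 and 174 CPM of Cxcl10 in Sema4d-shRNA tumours and 410 and 260 CPM in NC tumours, while the other tumour clusters had 32.6 to 109 CPM over all libraries. Its Ccl5 was 373 and 181 CPM in Sema4d-shRNA tumours and 583 and 217 CPM in NC tumours, which in NC library 1 was above the interferon cluster and in the other 3 libraries below it. Cxcl9 stayed low in the interferon cluster, at 25.6 CPM, and had its highest tumour value, 63.4 CPM, in the C3 cluster. The interferon cluster held 9.51% and 13% of tumour-like cells in Sema4d-shRNA tumours and 16.2% and 8.82% in NC tumours, and the C3 cluster 30.0% and 9.57% in Sema4d-shRNA tumours and 4.83% and 7.20% in NC tumours.

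**Figure D4:**
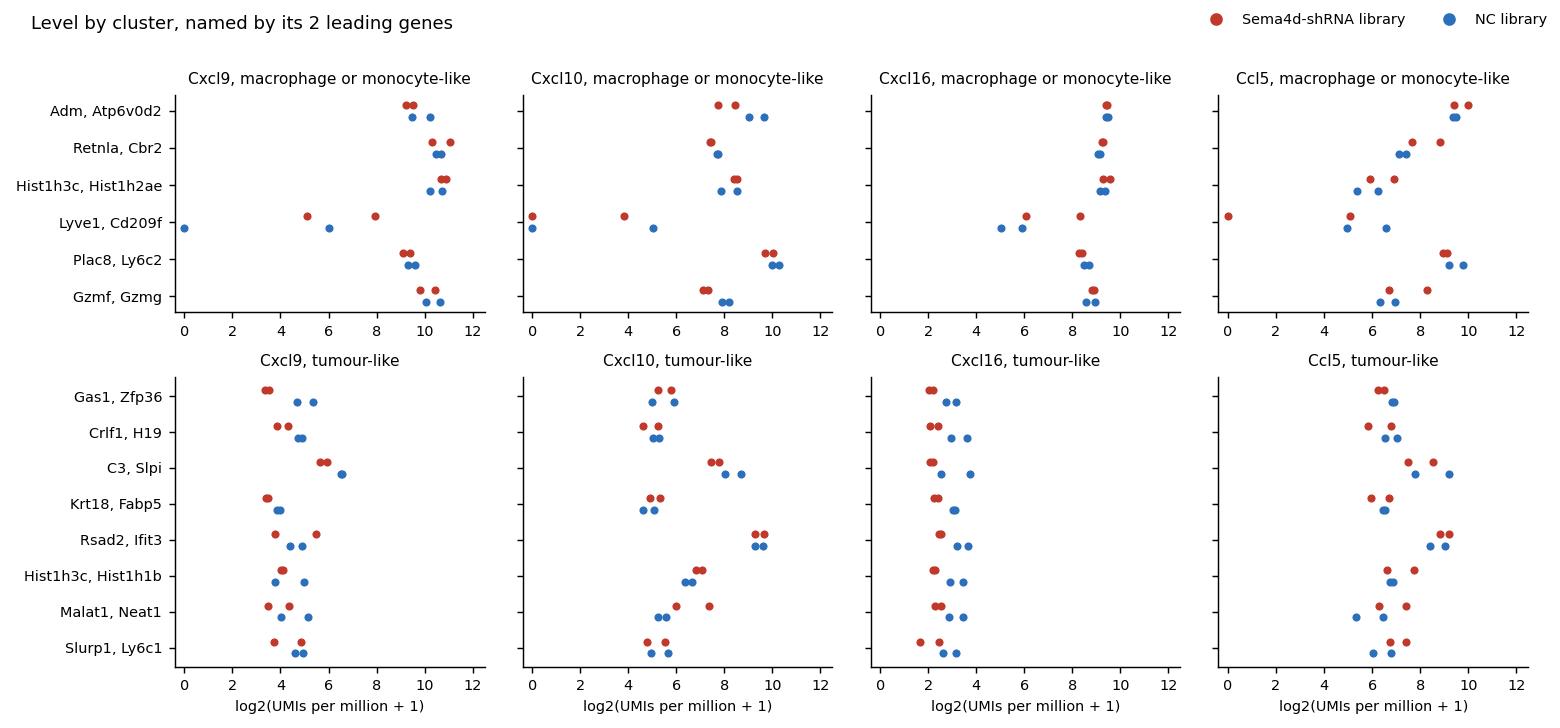
Level of Cxcl9, Cxcl10, Cxcl16 and Ccl5, as log2(CPM + 1), in the clusters of macrophage-like and tumour-like cells, each named by its leading genes; each point is a library, Sema4d-shRNA above NC. Cxcl10 peaks in the Plac8 cluster of the macrophage-like class, which is led by monocyte genes, and in the Rsad2 tumour cluster. Cxcl9 is high in both the Retnla and the Hist1h3c macrophage clusters, whose order differs between libraries.

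The share of cells with a UMI depends on depth and on free RNA, and is therefore given with a class that should lack the gene and after thinning each cell to 1000 UMIs. Cxcl9 was seen in 48.5% and 42.3% of macrophage-like cells in Sema4d-shRNA tumours and 49.3% and 55.0% in NC tumours. Of T/NK-like cells, 2.53% and 1.53% had it in Sema4d-shRNA tumours and 4.07% and 4.25% in NC tumours. Thinned, the macrophage shares were 33.4% and 27.8% in Sema4d-shRNA tumours and 32.8% and 39.5% in NC tumours, and the T/NK shares 0.844% and 0.766% in Sema4d-shRNA tumours and 1.36% and 1.16% in NC tumours, so Cxcl9 stayed far above that background. Median depth was 3756 and 3681 UMIs in macrophage-like cells of Sema4d-shRNA tumours and 4174.5 and 3823 in those of NC tumours, and 2007.5 and 2100.5 in T/NK-like cells of Sema4d-shRNA tumours and 2069 and 2031 in those of NC tumours. Tumour-like cells were the deepest of these classes, at 9949 and 9049 UMIs in Sema4d-shRNA tumours and 11061 and 8846 in NC tumours. Cxcl10 was seen in 28.5% and 25.4% of them in Sema4d-shRNA tumours and 27.7% and 20.3% in NC tumours, and thinned in 8.43% and 8.32% in Sema4d-shRNA tumours and 8.54% and 6.26% in NC tumours. Thinned macrophage-like cells were above this, at 12% and 12.2% in Sema4d-shRNA tumours and 14.7% and 12.9% in NC tumours, and thinned T/NK-like cells below it, at 2.74% and 2.74% in Sema4d-shRNA tumours and 3.79% and 1.54% in NC tumours. The receptors were seen in a minority of lymphocytes. Cxcr6 was found in 31.2% and 41.6% of T/NK-like cells in Sema4d-shRNA tumours and 38.2% and 36.7% in NC tumours (thinned 16.9% and 25.9% in Sema4d-shRNA tumours, 18.2% and 18.1% in NC tumours), and in 0.261% and 0.536% of tumour-like cells in Sema4d-shRNA tumours and 0.441% and 0.121% in NC tumours. Cxcr3 was found in 11% and 11.5% of T/NK-like cells in Sema4d-shRNA tumours and 9.76% and 8.88% in NC tumours (thinned 6.75% and 6.24% in Sema4d-shRNA tumours, 4.34% and 4.63% in NC tumours), beside 0.0825% and 0.190% of tumour-like cells in Sema4d-shRNA tumours and 0.100% and 0.0404% in NC tumours. Xcl1 was found in 27.0% and 32.3% of T/NK-like cells in Sema4d-shRNA tumours and 22.0% and 25.9% in NC tumours (thinned 17.7% and 25.1% in Sema4d-shRNA tumours, 15.7% and 18.5% in NC tumours), and the unthinned intervals of all 4 libraries spanned 17.8 to 35.4%. In tumour-like cells it was found in 0.825% and 1.68% in Sema4d-shRNA tumours and 0.341% and 0.464% in NC tumours.

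Within a class, members were seen in the same cells to different degrees. In T/NK-like cells thinned to 1000 UMIs, Ccl3 was found in 43.2% and 40.1% of the cells with a Ccl4 UMI in Sema4d-shRNA tumours and 44.8% and 39.1% in NC tumours. Of the cells with no Ccl4 UMI, 3.58% and 4.52% had it in Sema4d-shRNA tumours and 5.30% and 5.26% in NC tumours. Ccl5 was likewise more frequent among Ccl4-positive cells, at 70.5% and 71.4% in Sema4d-shRNA tumours and 74.3% and 68.1% in NC tumours, and less so among the others, at 44.8% and 44.4% in Sema4d-shRNA tumours and 41.7% and 45.8% in NC tumours. Xcl1 and Ccl5 showed no such order: Xcl1 was found in 16.1% and 20.6% of Ccl5-positive cells in Sema4d-shRNA tumours and 16.5% and 20.1% in NC tumours. Of Ccl5-negative cells, 19.5% and 30.1% had it in Sema4d-shRNA tumours and 14.9% and 16.8% in NC tumours. In macrophage-like cells, Cxcl9 was found in 42.3% and 42.5% of Cxcl10-positive cells in Sema4d-shRNA tumours and 46.1% and 53.8% in NC tumours. Of Cxcl10-negative cells, 32.2% and 25.7% had it in Sema4d-shRNA tumours and 30.5% and 37.4% in NC tumours. In tumour-like cells, Cxcl10 was found in 17.5% and 17.1% of Ccl5-positive cells in Sema4d-shRNA tumours and 18.4% and 13.1% in NC tumours. Of Ccl5-negative cells, 7.39% and 7.60% had it in Sema4d-shRNA tumours and 7.65% and 5.75% in NC tumours. Cells of a library are not replicates, and these shares are descriptions.

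Over all cells of a tumour, fewer cells of a type and less RNA per cell cannot be told apart. Cxcl9, Cxcl16, Ccl3 and Ccl4 had lower values there in Sema4d-shRNA tumours than in NC tumours. Ccl5, Xcl1, Cxcr6 and, by a near tie, Cxcr3 had higher values, and a single member, Ccl3, passed the test. Ccl3 stood at 23.3 and 26.7 CPM in Sema4d-shRNA tumours and 40.1 and 46.0 CPM in NC tumours (means 25.0 ± 2.42 CPM in Sema4d-shRNA and 43.1 ± 4.17 CPM in NC, SD, n = 2 each), and the libraries did not overlap. It fell by 0.73 on the log2 scale (SE 0.108; edgeR, adjusted p = 0.0458). Of the 10 members, 0 were called higher and 1 lower, beside 1.26% of all 16461 genes, 5 had an unadjusted p under 0.05, DESeq2 called 6 and the fit with the replicate number as a block called 4. The call rested on single libraries: adjusted p was 0.0615 without NC library 1 and 0.204 without NC library 2, at log2 -0.83 and -0.62, and 0.0552 with marked doublets kept.

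Cxcl9 had 165 and 127 CPM over all cells of Sema4d-shRNA tumours and 261 and 404 CPM in NC tumours (log2 -1.13, SE 0.257; edgeR, adjusted p = 0.0969). Cxcl16 had 58.2 and 64.6 CPM in Sema4d-shRNA tumours and 107 and 155 CPM in NC tumours (log2 -1.04, SE 0.195; edgeR, adjusted p = 0.069). For both, as for Ccl4 with 81.9 and 83.8 CPM in Sema4d-shRNA tumours and 106 and 132 CPM in NC tumours, every Sema4d-shRNA library lay below every NC library, and none passed the test. In the other direction, Ccl5 had 277 and 252 CPM in Sema4d-shRNA tumours and 209 and 183 CPM in NC tumours (log2 0.49, SE 0.0981; edgeR, adjusted p = 0.0603). Xcl1 had 11.8 and 27.6 CPM in Sema4d-shRNA tumours and 4.90 and 9.45 CPM in NC tumours (log2 1.52, SE 0.614; edgeR, adjusted p = 0.274), and Cxcr6 3.39 and 7.45 CPM in Sema4d-shRNA tumours and 3.03 and 2.61 CPM in NC tumours (log2 1.00; edgeR, adjusted p = 0.229). For these the libraries did not overlap either, although both genes of the lymphocytes were spread by more than 2-fold within the Sema4d-shRNA group. Cxcl10 was nearly level, at 162 and 177 CPM in Sema4d-shRNA tumours and 181 and 167 CPM in NC tumours (log2 0.02; edgeR, adjusted p = 0.900). Libraries did not overlap for 4 members that were higher and 4 that were lower, where 19.1% and 35.3% of all genes tested did the same, and the median of the members was log2 -0.22 beside 0.01 for all genes. The higher members include Cxcr3, at 0.714 and 1.59 CPM in Sema4d-shRNA tumours and 0.712 and 0.548 CPM in NC tumours (log2 0.93, edgeR adjusted p = 0.256). Its nearest values, 0.714 and 0.712 CPM, were almost equal. The shares of cells differed too. T/NK-like cells were 4.78% and 7.42% of cells in Sema4d-shRNA tumours, against 3.62% and 2.61% in NC tumours. Macrophage-like cells were 17.5% and 18.2% in Sema4d-shRNA tumours, against 30.7% and 38.5% in NC tumours. Ccl3, Ccl4 and Ccl5 came from both of these classes, which differed in opposite directions. The part of these shares in the sums was not tested.

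**Figure D5:**
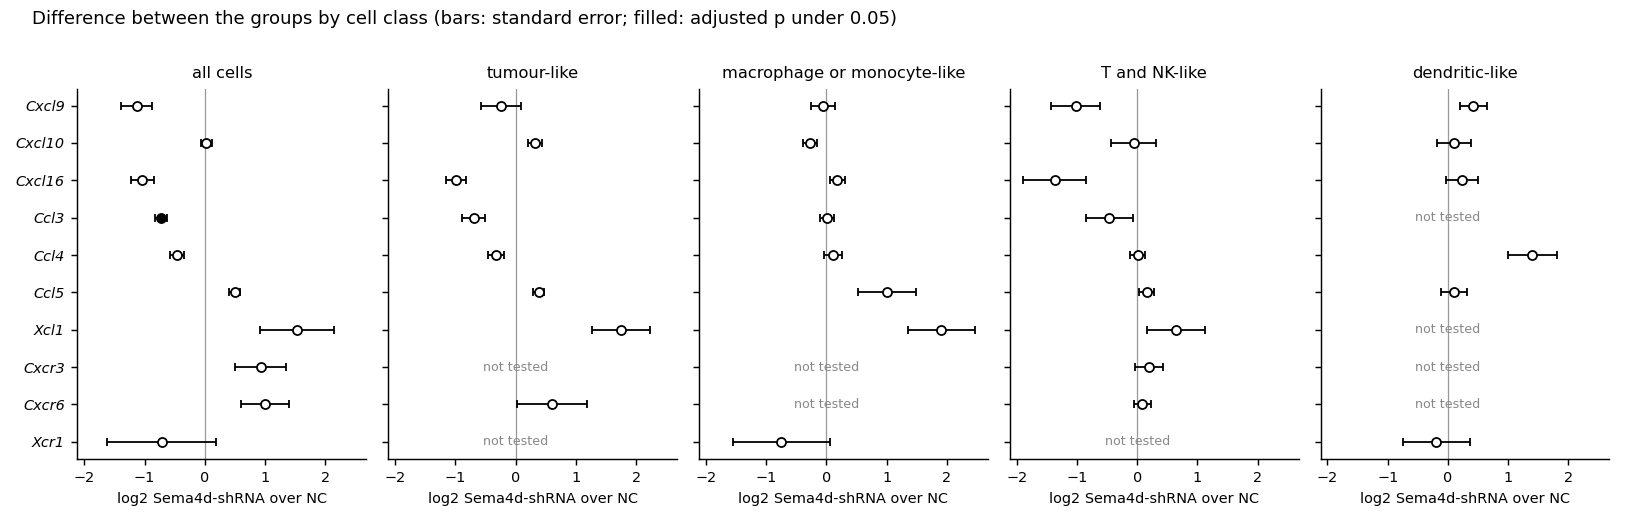
Log2 difference of each member, Sema4d-shRNA over NC, with its standard error, over all cells and within tumour-like, macrophage-like, T/NK-like and dendritic-like cells (edgeR); filled points passed an adjusted p of 0.05. Ccl3 over all cells, at -0.73, is the one that did.

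Within tumour-like cells no member passed the test. Cxcl10 had 155 and 172 CPM in Sema4d-shRNA tumours and 151 and 122 CPM in NC tumours (log2 0.32, SE 0.116; edgeR, adjusted p = 0.330), and Ccl5 201 and 176 CPM in Sema4d-shRNA tumours and 159 and 141 CPM in NC tumours (log2 0.38, SE 0.0932; edgeR, adjusted p = 0.145), and for both the libraries did not overlap. Cxcl16 lay lower, at 3.83 and 3.8 CPM in Sema4d-shRNA tumours, against 6.61 and 9.24 CPM in NC tumours (log2 -0.99, SE 0.166; edgeR, adjusted p = 0.0549), and so did Ccl3, at 1.60 and 1.92 CPM in Sema4d-shRNA tumours, against 2.78 and 3.17 CPM in NC tumours (log2 -0.70; edgeR, adjusted p = 0.173). Of 8 members tested, 0 were called, beside 0.483% of all 14491 genes, 6 had an unadjusted p under 0.05 and DESeq2 called 2. Libraries did not overlap for 3 higher and 3 lower members, beside 12.6% and 31.9% of all genes.

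Of the low tumour-cell values of the myeloid ligands, that of Cxcl16 lay near the level of macrophage markers in the same cells. Those of Ccl3, Ccl4 and Cxcl9 lay above the median of these markers in each library, and Ccl3 and Cxcl9 below the highest of them. The median of 14 macrophage markers in tumour-like cells was 0.637% and 0.738% of its macrophage level in Sema4d-shRNA tumours, against 1.49% and 1.65% in NC tumours, and Cxcl16 was at 0.638% and 0.638% in Sema4d-shRNA tumours, against 1.26% and 1.57% in NC tumours. Ccl3 was at 1.11% and 1.46% in Sema4d-shRNA tumours and 2.01% and 2.08% in NC tumours, and Cxcl9 at 1.85% and 1.52% in Sema4d-shRNA tumours and 1.82% and 2.00% in NC tumours. Ccl4 was at 1.74% and 2.24% in Sema4d-shRNA tumours and 2.41% and 2.81% in NC tumours. The highest marker was at 2.34% and 1.56% in Sema4d-shRNA tumours and 2.70% and 2.92% in NC tumours. Only Ccl4 in Sema4d-shRNA library 2 was above it. T/NK-like cells also had Ccl3 and Ccl4, and RNA from them was not part of these percents. The macrophage markers summed to 146 and 145 CPM in tumour-like cells of Sema4d-shRNA tumours and 301 and 381 CPM in those of NC tumours. With the part that free RNA could give subtracted, Cxcl16, Ccl3 and Xcl1 had too few UMIs left in tumour-like cells for the test. Cxcl9 then changed sign, with its value given further below, while Cxcl10 stood at log2 0.33 and Ccl5 at 0.37. Cxcl10 and Ccl5 were far above the marker level: the tumour-cell level of Cxcl10 was 60.8% and 64.8% of the macrophage level in Sema4d-shRNA tumours and 43.0% and 39.2% in NC tumours, and that of Ccl5 33.6% and 55.9% in Sema4d-shRNA tumours and 56.5% and 69.9% in NC tumours. Xcl1 in tumour-like cells was at 0.0822% and 0.146% of its T/NK level in Sema4d-shRNA tumours and 0.0687% and 0.0499% in NC tumours, where T/NK markers were at 0.119% and 0.175% in Sema4d-shRNA tumours and 0.110% and 0.113% in NC tumours.

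Within macrophage-like cells the ligands that make up most of the tumour's Cxcl9, Cxcl16 and Ccl3 did not pass the test. Cxcl9 had 1485 and 1028 CPM in Sema4d-shRNA tumours and 1256 and 1511 CPM in NC tumours, and the libraries overlapped (log2 -0.05, SE 0.198; edgeR, adjusted p = 0.960). Cxcl16 had 601 and 595 CPM in Sema4d-shRNA tumours and 526 and 589.9 CPM in NC tumours (log2 0.18, SE 0.125; edgeR, adjusted p = 0.691), and Ccl3 145 and 131 CPM in Sema4d-shRNA tumours and 138 and 152 CPM in NC tumours (log2 0.00, SE 0.114; edgeR, adjusted p = 0.996). The estimate for Ccl5 was larger and more spread, with 598 and 315 CPM in Sema4d-shRNA tumours and 282 and 202 CPM in NC tumours (log2 1.00, SE 0.475; edgeR, adjusted p = 0.632). Cxcl10 had 255 and 265 CPM in Sema4d-shRNA tumours and 352 and 311 CPM in NC tumours, and its libraries did not overlap (log2 -0.27, SE 0.116; edgeR, adjusted p = 0.438). Of 8 members tested, 0 were called, beside 0.257% of all 12467 genes, 2 had an unadjusted p under 0.05, and DESeq2 called 0. Libraries did not overlap for 3 higher members and 1 lower, beside 12.4% and 31.8% of all genes. The tumour markers stood in macrophages at 7.45% and 7.96% of their tumour level in Sema4d-shRNA tumours and 6.31% and 5.58% in NC tumours, and their part in the Cxcl10 values was not tested.

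T/NK-like cells showed no called member either. Their Ccl5 had 3049.9 and 2710.1 CPM in Sema4d-shRNA tumours and 2744 and 2515 CPM in NC tumours (log2 0.16, SE 0.123; edgeR, adjusted p = 0.852). Xcl1 had 829 and 1089 CPM in Sema4d-shRNA tumours and 412 and 860.0 CPM in NC tumours (log2 0.64, SE 0.484; edgeR, adjusted p = 0.903), with overlapping libraries. The receptors were close, with Cxcr6 at 230.4 and 291 CPM in Sema4d-shRNA tumours and 244 and 260.1 CPM in NC tumours (log2 0.09; edgeR, adjusted p = 0.960) and Cxcr3 at 43.8 and 54.0 CPM in Sema4d-shRNA tumours and 48.6 and 38.4 CPM in NC tumours (log2 0.19; edgeR, adjusted p = 0.927). Of 9 members tested, 0 were called, beside 0.975% of all 8100 genes, 2 had an unadjusted p under 0.05 and DESeq2 called 0. Libraries did not overlap for 0 higher and 2 lower members, beside 17% and 20.3% of all genes. The 2 lower ones were Cxcl9, at 14.4 and 5.48 CPM in Sema4d-shRNA tumours and 19.4 and 17.1 CPM in NC tumours, and Cxcl16, and macrophage markers in the same cells were at 0.753% and 0.915% of their macrophage level in Sema4d-shRNA tumours and 2.36% and 2.16% in NC tumours. The part of these markers in the values was not tested. The make-up of the class differed between libraries as well. The unnamed Plin3 sub-cluster held 65 and 102 cells in Sema4d-shRNA tumours, against 11 and 4 in NC tumours (13.7% and 11.2% of the class in Sema4d-shRNA tumours, 2.98% and 1.54% in NC tumours). The unnamed Gm26870 sub-cluster went the other way, with 9 and 31 cells in Sema4d-shRNA tumours, against 84 and 26 in NC tumours (1.90% and 3.39% in Sema4d-shRNA tumours, 22.8% and 10% in NC tumours). Their part in the values was not tested.

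The smaller groups were less precise. In dendritic-like cells 6 members were tested and 0 called, beside 0.268% of all 3360 genes, with 1 at an unadjusted p under 0.05. Libraries did not overlap for 1 higher and 0 lower members, beside 15% and 16.7% of all genes. That member was Ccl4, with 428 and 179.8 CPM in Sema4d-shRNA tumours and 112 and 103 CPM in NC tumours (log2 1.40, SE 0.401; edgeR, adjusted p = 0.642). Xcr1 overlapped, with a log2 difference of -0.19 (SE 0.554; edgeR, adjusted p = 0.999). Among the lymphocyte sub-clusters, 5 members were tested in CD8 T-like cells, 4 in NK-like, 7 in naive or memory and 5 in cycling cells, and 0 were called in any of them, beside 0.501%, 0.383%, 0.675% and 0.0277% of all genes tested there. By size of the log2 difference, Ccl3 in cycling cells came first, with overlapping libraries. It had 211 and 255 CPM in Sema4d-shRNA tumours and 1300 and 143 CPM in NC tumours (log2 -1.65, SE 1.18, edgeR adjusted p = 0.921). Xcl1 in naive or memory cells came next, at 1084 and 1824 CPM in Sema4d-shRNA tumours and 847 and 277 CPM in NC tumours (log2 1.5, edgeR adjusted p = 0.460). Xcl1 was lower in CD8 T-like cells (log2 -1.03) and higher in NK-like and cycling cells (log2 0.525 and 0.641).

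The difference between Sema4d-shRNA and NC was itself compared between classes. Macrophage-like and tumour-like cells differed in it for 3 of the 10 members, beside 3.01% of all genes. For Cxcl16 the macrophage difference exceeded the tumour one by log2 1.17 (SE 0.127; edgeR interaction, adjusted p = 1.18e-05), the macrophage difference being 0.18 and the tumour one -0.99. This held without any one library, at 0.99 to 1.30 with an adjusted p of at most 0.0125. For Cxcl10 the interaction was -0.58 (SE 0.109; edgeR, adjusted p = 0.00336), with the macrophage difference at -0.27 and the tumour one at 0.32, and without NC library 2 it was -0.53 (edgeR, adjusted p = 0.188). For Ccl3 it was 0.72 (SE 0.159; edgeR, adjusted p = 0.0143), and it passed only with all libraries or without Sema4d-shRNA library 2, with 0.46 (edgeR, adjusted p = 0.146) without Sema4d-shRNA library 1 and adjusted p of 0.151 and 0.339 without NC library 1 and NC library 2. As given above, tumour-cell Cxcl16 stood at about the percent of its macrophage level that the median macrophage marker did. Ccl3 stood above that median and below the highest marker, and the part of these markers in the interactions was not tested. T/NK-like cells differed from tumour-like cells for 1 of 10 members, beside 0.515% of all genes: Xcl1 had an interaction of -0.99 (SE 0.257; edgeR, adjusted p = 0.026), with 62 and 146 Xcl1 UMIs in tumour-like cells of Sema4d-shRNA tumours and 19 and 23 in those of NC tumours. It was lost without Sema4d-shRNA library 2 (-0.45), without NC library 1 (edgeR, adjusted p = 0.191) and without NC library 2 (-0.75). In tumour-like cells Xcl1 stood below the percent of its T/NK level that the median T/NK marker did, in each library. The part of these markers in the Xcl1 interaction was not tested. T/NK-like against macrophage-like cells gave 0 of 9 members, beside 0.189% of all genes.

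Other genes of the chemokine system were taken from 6 lists. Over all cells, where 1.26% of all 16461 genes were called, 8 of 14 other T-cell ligands were tested and 0 called. Of 8 scavenger and protease genes, 2 were lower, and both were the sheddases that cut membrane CXCL16: Adam10 with 38.9 and 39.5 CPM in Sema4d-shRNA tumours and 57.9 and 60.4 CPM in NC tumours (log2 -0.53; edgeR, adjusted p = 0.0409), and Adam17 with 30.9 and 29.5 CPM in Sema4d-shRNA tumours and 42.9 and 43.9 CPM in NC tumours (log2 -0.46; edgeR, adjusted p = 0.0487). Within these classes neither sheddase was called. Adam10 and Adam17 were at log2 -0.27 and -0.05 in macrophage-like cells and -0.29 and -0.26 in tumour-like cells. In T/NK-like cells they were at -0.09 and 0.41. Of 12 genes of the interferon-gamma axis, 1 was higher and 1 lower: Ifng, the inducer of CXCL9, at 7.92 and 11 CPM in Sema4d-shRNA tumours and 3.69 and 3.38 CPM in NC tumours (log2 1.48; edgeR, adjusted p = 0.0325), and Ciita, the regulator of MHC class II genes, at 3.04 and 3.81 CPM in Sema4d-shRNA tumours and 7.21 and 9.15 CPM in NC tumours (log2 -1.20; edgeR, adjusted p = 0.0463). None of 10 type I interferon genes was called, and of 15 signalling genes 1 was lower, the receptor kinase gene Adrbk1, at 27.8 and 27.6 CPM in Sema4d-shRNA tumours and 39.0 and 40.6 CPM in NC tumours (log2 -0.46; edgeR, adjusted p = 0.0479). All 5 calls were lost without NC library 2, at adjusted p of 0.185 to 0.232, and without NC library 1, at 0.0599 to 0.139 (edgeR).

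Within classes, the called genes of these lists described here were in T/NK-like cells. In T/NK-like cells 4 genes of these lists were higher, where 0.975% of all 8100 genes were called in either direction. The make-up of this class differed between libraries, as given above, and its part in these values was not tested. Rgs2, which limits G-protein signalling, had 223 and 293 CPM in Sema4d-shRNA tumours and 128 and 148 CPM in NC tumours (log2 0.95; edgeR, adjusted p = 8.11e-08), and it passed under each alternative run. Rgs1, of the same family, had 823 and 991 CPM in Sema4d-shRNA tumours and 612 and 684 CPM in NC tumours (log2 0.52; edgeR, adjusted p = 0.0154), a call lost without Sema4d-shRNA library 2 or NC library 1. Ifng had 561 and 434 CPM in Sema4d-shRNA tumours and 312 and 337 CPM in NC tumours (log2 0.64; edgeR, adjusted p = 5.57e-04), and without Sema4d-shRNA library 1 it was 0.44 (edgeR, adjusted p = 0.415). Ccr7, the lymph-node homing receptor, had 38.8 and 26.6 CPM in Sema4d-shRNA tumours and 11.7 and 17.1 CPM in NC tumours (log2 1.20; edgeR, adjusted p = 0.0374), a call lost without Sema4d-shRNA library 1, without NC library 1 and with free RNA subtracted. In macrophage-like and dendritic-like cells no gene of the 6 lists was called.

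The genes whose levels went most alike with each member over the 32 class-by-library sums are a description, since the sums share libraries and cell classes. Ccl3 and Ccl4 were each other's nearest of 15670 genes (r = 0.970), followed for both by the integrin gene Itgal (0.933 and 0.912) and Lrmp (0.913 and 0.907). Cxcl9 went with Pirb (0.936), Sdc3 (0.934) and Aph1c (0.929), and Cxcl16 with Cfp (0.955), H2-Eb1 (0.943) and Ctsh (0.941). For Cxcl10 the nearest were Cd2ap (0.855), Oasl1 (0.853) and Basp1 (0.848), and for Ccl5 Pglyrp1 (0.936), Tbc1d10c (0.929) and Klrd1 (0.923). Xcl1 went with Ctsw (0.992), Gimap4 (0.988) and Gimap8 (0.987), Cxcr6 with BC021614 (0.968), 1700097N02Rik (0.954) and Cd8b1 (0.948), Cxcr3 with Fam189b (0.870), Kbtbd11 (0.869) and Fam65b (0.844), and Xcr1 with Mycl (0.986), Gm13546 (0.983) and the dendritic-cell receptor gene Flt3 (0.979).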

How the data were processed

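Single-cell RNA was captured in droplets (DNBelab C series) from dissociated tumours, per the labels' protocols. The authors deposited 1 matrix a library of whole-number UMI counts per gene and cell, not normalized, made with PISA 1.0 per the file headers. STAR 2.5.1b and the builds GRCh38 and mm10 are named in the submitters' processing notes without their roles, while annotation, cell calling and strandedness were not given in the sources used here. Reads of overlapping genes could therefore be shared. The members and the marker and pathway lists were chosen with earlier results of these data known.

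Filters of 300 or more genes and no more than 20% mitochondrial UMIs kept 45062 of the 45220 cells. By its own threshold Scrublet marked 0% and 0% of the Sema4d-shRNA cells and 0.766% and 1.51% of the NC cells, so the top 6% of scores in each library were marked instead, 2703 cells in all, and left out. Library pairs shared 756 to 3782 cell names, of which 0 had equal UMIs. With scanpy 1.11.5 (Python 3.11.15), 2000 variable genes, 30 components and 15 neighbours gave 23 Leiden clusters, with 35 chemokine and receptor genes, the members among them, left out. Clusters were named from 105 of 110 fixed markers, and the limits of the naming scores were set after the data were seen. Rebuilt names may differ from the study's.

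UMI counts were summed per library and class and tested where every library had at least 20 cells. The test was edgeR 4.0.16's quasi-likelihood test (R 4.3.3, limma 3.58.1) with TMM scaling and filterByExpr, adjusted by Benjamini-Hochberg over all genes of the fit at 0.05. Comparisons between classes had the library as a term, and the interaction had class, group and library. Checks on simulated counts covered the fits within tumour-like, macrophage-like and T/NK-like cells. They also covered the between-class and interaction fits of T/NK-like with macrophage-like cells, and the other fits were not simulated. Shares have exact Clopper-Pearson 95% intervals, a count of 0 allows up to 3 counts, and thinned cells hold 1000 UMIs. Counting error of UMIs limits the genes with few of them, above all Cxcr3 and Xcr1. A marker was used to gauge free RNA if it had at least 50 CPM in its own class and at least 4 times the level of the other. Alternatives were RLE factors, DESeq2 1.42.0, no filter, each library left out, the replicate number as a block, doublets kept, clustering at resolution 2, free RNA subtracted and thinning.

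Genes named beside the members were those of the lists that passed the test (up to 5 a list and class), the 3 most alike by Pearson's r of log2(CPM + 1) among genes with at least 50 UMIs, the top 3 genes by fold of described clusters, and Sema4d. A gene of the lists is not reported here. Sub-clusters' leading genes were named after their values were seen. Coordinates are those of the GENCODE M21 annotation on GRCm38, matched by gene name for 10 of 10 members.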

Additional observations from a re-analysis of the deposited data

Results flagged for a closer look

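A difference between Sema4d-shRNA and NC that was not the same in 2 cell classes, by the interaction test, was found for 4 members. For Xcl1 the T/NK-like and the tumour-like class differed, by log2 -0.986 (edgeR, adjusted p = 0.026). Macrophage-like cells differed from tumour-like cells for Cxcl10, by -0.576 (edgeR, adjusted p = 0.00336), for Cxcl16, by 1.17 (edgeR, adjusted p = 1.18e-05), and for Ccl3, by 0.715 (edgeR, adjusted p = 0.0143). With free RNA subtracted, Xcl1, Cxcl16 and Ccl3 had too few UMIs left in tumour-like cells for the test. The part of free RNA in these interactions was not tested, and how they depend on single libraries is given above. Groups of 2 libraries were too small for a check of single libraries against the rest of their group.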

How the results depend on the processing

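Of the alternatives to the Sema4d-shRNA over NC values, 360 had the same direction and side of the threshold, 33 newly passed, 37 no longer passed and 29 changed sign. Between classes 178 were the same and 2 newly passed. Members called over all cells numbered 1, against 6 by DESeq2, 3 with no filter, 4 with the replicate block and 0 with doublets kept. In tumour-like cells 0 were called, against 2 by DESeq2, 5 with no filter, 1 with the block and 1 at resolution 2, and the block gave 1 in macrophage-like and 1 in dendritic-like cells. The cause was not tested. The log-scale difference of library 1 minus library 2 in the Sema4d-shRNA group was correlated, over genes, with that in the NC group. Pearson's r was -0.09 over all cells, -0.01 in tumour-like and in T/NK-like cells, 0.073 in macrophage-like and 0.138 in dendritic-like cells. The labels tie the numbers to no shared animal or day, so they were not used to pair the libraries.

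Without one library, members called ranged from 0 to 3 over all cells, 0 to 1 in tumour-like, macrophage-like and dendritic-like cells, and 0 to 2 in T/NK-like cells. Interactions called ranged from 1 to 5 (macrophage against tumour), 0 to 1 (T/NK against tumour) and 0 to 1 (T/NK against macrophage). Signs changed without one library for Cxcl10 (-0.037 to 0.092) and Xcr1 (-2.55 to 0.10) over all cells, Cxcl9 in tumour-like cells (-0.69 to 0.095), Cxcl9 (-0.39 to 0.23), Ccl3 (-0.11 to 0.12) and Ccl4 (-0.12 to 0.31) in macrophages, Ccl3 (-0.84 to 0.062), Ccl4 (-0.20 to 0.20) and Cxcr6 (-0.079 to 0.22) in T/NK-like cells, and Cxcl16 (-0.20 to 0.63), Ccl5 (-0.22 to 0.40) and Xcr1 (-0.82 to 1.06) in dendritic-like cells. None of these had passed.

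With doublets kept, Cxcl10 was -0.014 over all cells, and in T/NK-like cells Ccl4 was -0.16, Ccl5 -0.052, Cxcr3 -0.0028 and Cxcr6 -0.15, and macrophages held 88.0% of Cxcl16. Ccl4 there was -0.0033 with RLE and -0.0025 by DESeq2. With free RNA subtracted Cxcl9 in tumour-like cells was 1.48, with no filter Ccl3 in macrophages was -0.013, and at resolution 2 Ccl5 in dendritic-like cells was -0.21. Thinned, the mean share of cells with a UMI was 33.4% for Cxcl9 and 36.7% for Cxcl16 in macrophages, 7.89% for Cxcl10 in tumour-like cells, 15.5% for Ccl3, 29.1% for Ccl4, 52.0% for Ccl5, 19.3% for Xcl1, 5.49% for Cxcr3 and 19.8% for Cxcr6 in T/NK-like cells, and 20.2% for Xcr1 in cDC1-like cells. Over all genes and cells, 19 were higher and 188 lower, against 400 and 1031 by DESeq2, 336 and 840 with no filter, 44 and 506 with the block, 35 and 289 with doublets kept, and 0 and 2 without NC library 2. In tumour-like cells 10 and 60 became 74 and 201 by DESeq2, 242 and 427 with no filter and 4 and 16 with free RNA subtracted. In macrophages 8 and 24 became 33 and 29 by DESeq2, 233 and 188 with no filter and 199 and 125 with the block. In T/NK-like cells 53 and 26 became 14 and 20 by DESeq2 and 24 and 22 with the block.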

Other observations

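Members were also measured in groups of cells that have no name. The unnamed sub-cluster of 37 dendritic-like cells led by Ifit3, Ifit2 and Rsad2 had 2370.1 CPM of Cxcl10. The endothelial-like cells with high Cxcl9 also carried tumour markers, which summed to 2193 and 2642 CPM in Sema4d-shRNA tumours and 2908 and 2365 CPM in NC tumours. In tumour-like cells these markers summed to 2767 and 2959 CPM in Sema4d-shRNA tumours and 3085 and 3076 CPM in NC tumours. T/NK-like cells had 208 and 250 CPM in Sema4d-shRNA tumours and 205 and 159 CPM in NC tumours. The endothelial-like cells had their own markers at 8290 and 5276 CPM in Sema4d-shRNA tumours and 4031 and 5511 CPM in NC tumours. The source of the tumour markers in them, and any part of it in the Cxcl9 values, was not tested.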
